A study of Mus musculus with 6 samples.

Results

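Transcript levels of mouse embryonic fibroblasts that had spent 4 h in 1 mM hydrogen peroxide (H2O2) were compared with those of the same kind of cells after 2 h in it. The comparison rests on 4 of the 6 arrays of the series, chosen by their labelled time in H2O2, with 2 arrays at each time, and it covers all 17184 genes that could be tested. It asks which transcripts went on moving, and which turned back, between the early and the later time. The cells were primary fibroblasts, grown out of embryos and kept in serum-containing medium, and the only agent was H2O2, at the same dose in both groups. The mouse strain, the genotype, the number of embryos and the passage of the cells are not given in the sources used here. The remaining 2 arrays held untreated cells (0 h). They do not enter the difference between 4 h and 2 h, but they shared in the estimate of the spread, and their values are printed beside those of the treated cells. All untreated arrays analysed here are labelled 0 h, so time in H2O2 and time in culture cannot be told apart. The labels call the 2 arrays of a time independent experiments without saying whether embryos, cultures or days differed. The p-values measure the spread between such arrays.

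H2O2 crosses membranes and oxidises cysteines, metal centres and DNA. Cells meet it with early response transcription factors and MAP kinase signalling, with antioxidant enzymes under the factor Nrf2, with chaperones, and, once DNA is damaged, with the p53 programme and a stop in the cell cycle. Many of the earliest transcripts are short-lived, so that their level soon follows a change in synthesis, whereas transcripts for ribosomal, matrix and metabolic proteins are long-lived and are slow to show one.

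Signals were read from 1-colour Agilent arrays. A "scaled signal" below is a probe's fluorescence after all arrays were brought to the same 75th percentile, and a change is the difference of log2 scaled signals, 4 h minus 2 h, with its standard error (SE, n = 2 arrays per group). The 75th percentile of the raw signal was between 674 and 754 on the 4 treated arrays, between 57.3% and 68.0% of their spots lay well above background, and no spot was saturated. The arrays of a time correlated across genes with r = 0.994 at 2 h and r = 0.994 at 4 h. Replicate 1 of every group lay on one slide and replicate 2 on another. A given time always occupied the same place on its slide, so place and time cannot be told apart. The arrays measure a culture as a whole, in which fewer cells of a type and less RNA per cell cannot be told apart.

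Between 2 h and 4 h, 2306 genes rose and 2839 fell (limma with Benjamini-Hochberg adjustment, adjusted p under 0.05). These were 13.4% and 16.5% of the genes tested, and 29.9% moved either way. The median rise was 0.68 on the log2 scale and the median fall was -0.50. A rise of at least 1 was seen in 591 genes and a fall of at least that size in 397. The direction was the same within both slides for 5141 of the 5145 genes called. The calls rest on the same arrays and favour genes whose slides agree, so this count is a description. The median over all genes was -0.08, and the scaling of the arrays moved this centre. It was 0.00 without scaling and 0.11 when arrays were set on their spike-in controls. The balance of the calls moved with it. With each array's 75th percentile as the reference 44.8% of the calls were rises, against 56.0% after median centring (2231 higher, 1753 lower), 58.6% without scaling (2239 and 1584), 75% with spike-in scaling (3833 and 1276) and 76.0% after another background correction, normexp with the 75th percentile (781 and 246). The changes below are differences from 0 under the 75th percentile scaling, with the median of all genes not subtracted. With the slide as a block, 2856 genes were higher and 4015 lower. Leaving out 1 treated array lowered the counts to 1316 higher and 1045 lower without 2 h replicate 1, 1371 and 1090 without 2 h replicate 2, 1648 and 1588 without 4 h replicate 1, and 1579 and 1320 without 4 h replicate 2.

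**Figure D1:**
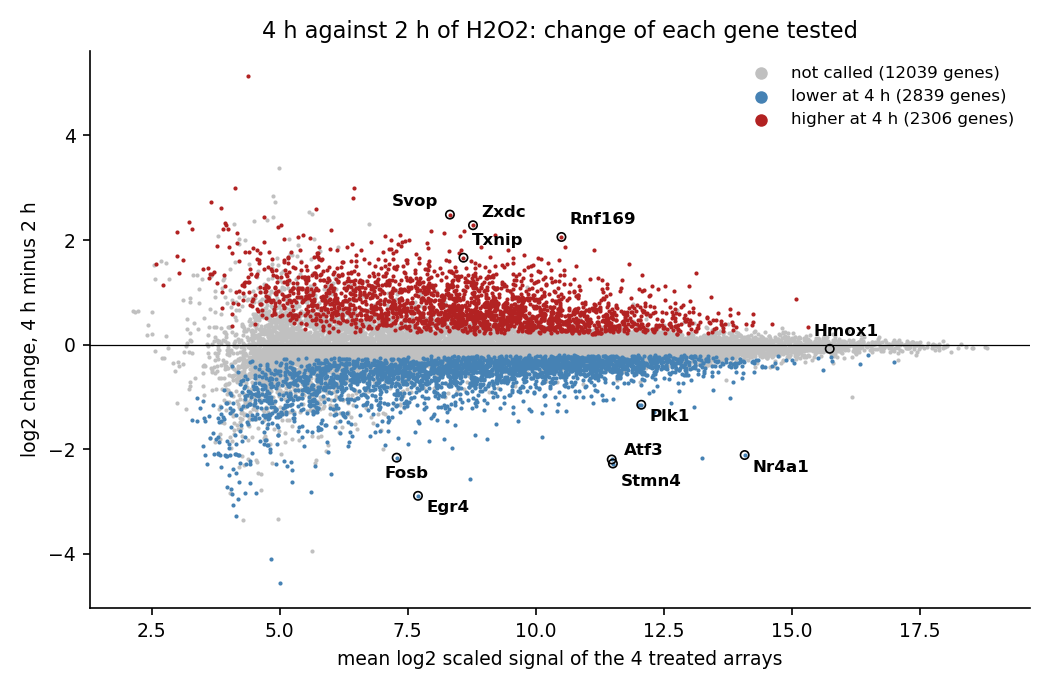
Change of each of the 17184 genes from 2 h to 4 h (y axis, log2 scale) against its mean log2 scaled signal on the 4 treated arrays (x axis); red genes were higher at 4 h (2306), blue genes lower (2839), and grey genes were not called. Rises and falls are seen over most of the range of signal, the named falls Egr4, Atf3, Fosb, Nr4a1 and Stmn4 all lie below -2, and Hmox1 lies at -0.08.

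Among genes with a symbol that were above background on all 4 treated arrays, the largest rises were those of Svop, Zxdc, Lipt1, Inka2, Robo3, Trim13, Tnfrsf18, Zbtb9, Zfp287, Rnf169, Zfp763 and Bcl9. Their untreated signals are set beside them. Svop, which codes for a transporter-like protein known from synaptic vesicles, had scaled signals of 53.9 and 44.9 in untreated cells, 143 and 128 at 2 h, and 825 and 697 at 4 h. Its 4 h arrays lay above both 2 h arrays by 2.49 (SE 0.14, adjusted p = 0.0018). Robo3, an axon guidance receptor, read 28.3 and 24.0, then 123 and 112, then 547 and 505 (2.16, SE 0.11, adjusted p = 0.0018). Tnfrsf18, a receptor of the tumour necrosis factor family best known on T cells, read 37.1 and 34.3, then 79.3 and 79.2, then 359 and 317 (2.09, SE 0.09, adjusted p = 0.0017). In these 3 genes each later time lay above the one before it on both slides.

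In most of the others the 2 h arrays were the low point. Zxdc, a zinc finger co-activator, read 1249.5 and 1276 in untreated cells, 200.2 and 196 at 2 h, and 986 and 946 at 4 h. It rose by 2.28 (SE 0.06, adjusted p = 0.0017) and a dimmer probe of the gene rose by 1.27. Trim13, a ubiquitin ligase of the endoplasmic reticulum, read 776 and 752, then 136 and 146, then 605 and 632, a rise of 2.14 (SE 0.07, adjusted p = 0.0017), and its other probe rose by 2.46. Rnf169, a ubiquitin ligase that binds at DNA breaks, read 2022 and 2191, then 673 and 748, then 2934 and 2978, a rise of 2.06 (SE 0.08, adjusted p = 0.0017). Lipt1, which transfers lipoic acid to mitochondrial enzymes, went from 32.4 and 28.1 at 2 h to 137 and 138 at 4 h (2.18), beside 146 and 150 in untreated cells. In all 4 genes both 4 h arrays lay far above both 2 h arrays and closer to the untreated ones, the differences from untreated at 4 h being -0.39, -0.31, 0.49 and -0.11 in the order given. These values share the 2 h arrays with the comparison and are a description. Inka2, an inhibitor of the kinase Pak4, read 166 and 187, then 195 and 171, then 783 and 873, so that untreated and 2 h arrays overlapped and the 4 h arrays lay above both (2.18, SE 0.11, adjusted p = 0.0017). Bcl9, a co-activator of Wnt signalling, rose by 2.00 on its brighter probe, but its dimmer probe read -0.23 and was not called. The rise of Zfp763 (2.00) lost its call without 2 h replicate 1, at an adjusted p of 0.057.

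The largest falls were those of Egr4, Stmn4, Atf3, Fosb, Nr4a1, Zfp819, Prnd, Cplx1, Etl4, Prok1, Letm2 and Mc1r. For 11 of these 12 genes the 2 h arrays held the highest signal of the 3 times, the exception being Etl4. The genes were ranked by their fall from 2 h, which favours a high 2 h signal, so this count is a description. Stmn4, a tubulin-binding stathmin of neurons, read 239.6 and 255 in untreated cells, 6584 and 6189.6 at 2 h, and 1342 and 1301 at 4 h, a fall of -2.27 (SE 0.07, adjusted p = 0.0017). Letm2, a mitochondrial inner membrane protein, read 88.1 and 94.2, then 2053 and 2035, then 594 and 616 (-1.76, SE 0.06, adjusted p = 0.0017). Prok1, a secreted prokineticin, was not above background before treatment and read 568 and 541 at 2 h against 163 and 155 at 4 h (-1.80). A second, dimmer probe of Prok1 read 0.13 and was not called. In Stmn4, Letm2 and Prok1 the 4 h signal lay between the untreated and the 2 h signal, without overlap of the 3 groups. Zfp819, Cplx1, Prnd and Mc1r followed the same order, with falls of -1.98, -1.85, -1.90 and -1.74. Cplx1 was not called after normexp with the 75th percentile (adjusted p = 0.48). The calls of Prnd and Mc1r were not stable either: Prnd reached an adjusted p of 0.056 without 4 h replicate 1 and 0.062 without 4 h replicate 2, and Mc1r lost its call without each of the 4 treated arrays in turn (adjusted p between 0.082 and 0.14). Etl4 stands apart because its probes disagreed. The brightest fell by 1.80 on the log2 scale, and 3 others read 0.41, 1.26 and 2.06, of which the last rose past the test, so no direction is given for the gene.

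Among the gene families examined, the zinc finger genes had the largest share of rises. Genes named Zfp, most of which code for DNA-binding proteins with strings of C2H2 zinc fingers that repress other genes and transposons, rose in 185 of 302 cases (61.3%) and fell in 12, against 13.4% and 16.5% of all genes. Their median change was 0.58, where that of all genes was -0.08, and it was 0.55 on slide 1 and 0.60 on slide 2. Under the alternative scalings and background corrections between 93 and 212 of them were higher and between 3 and 10 lower, and the median stayed between 0.42 and 0.77. Zfp287 read 179 and 179.9 at 2 h and 774 and 735 at 4 h, beside 573 and 547 in untreated cells (2.07, SE 0.06, adjusted p = 0.0017). Zfp420 read 20.1 and 22.0 at 2 h and 87.0 and 93.7 at 4 h, beside 63.9 and 73.6 (2.10, adjusted p = 0.0017), although a second probe of the gene read -0.42 and was not called. Zfp454, not above background on either 2 h array, was at least 1.87-fold higher at 4 h, with 34.8 and 29.6 against 5.45 and 8.72. Among the 12 that fell were Zfp819, described above, and Zfp941, which read 797 and 746 at 2 h against 444 and 386 at 4 h (-0.90, adjusted p = 0.0047) and 153 and 146 before treatment. After normexp with the 75th percentile the calls of Zfp420 and Zfp454 were lost (adjusted p = 0.077 and 0.14).

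The related Zbtb, Zscan, Zkscan and Zxd genes, which pair zinc fingers with BTB or SCAN domains, moved in the same direction with more exceptions. Of 57 tested, 31 rose (54.4%) and 7 fell (12.3%), against 13.4% and 16.5% of all genes, with a median of 0.36. The rises numbered 20 without 2 h replicate 2 and 16 after normexp with the 75th percentile. Zbtb9 read 58.2 and 72.0 at 2 h and 268 and 278 at 4 h (2.07, SE 0.12, adjusted p = 0.0021). Zscan22 read 78.9 and 78.3, then 218 and 231 (1.51, adjusted p = 0.0017), and Zkscan1 read 679 and 664, then 1826 and 1708 (1.40, adjusted p = 0.0019). For all 3 the 4 h arrays lay above both 2 h arrays. Dimmer probes of Zkscan1 read 0.60, past the test, and -0.20, not past it. Zbtb10 went the other way (-0.79, adjusted p = 0.0027), though not after averaging its probes (adjusted p = 0.15).

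**Figure D2:**
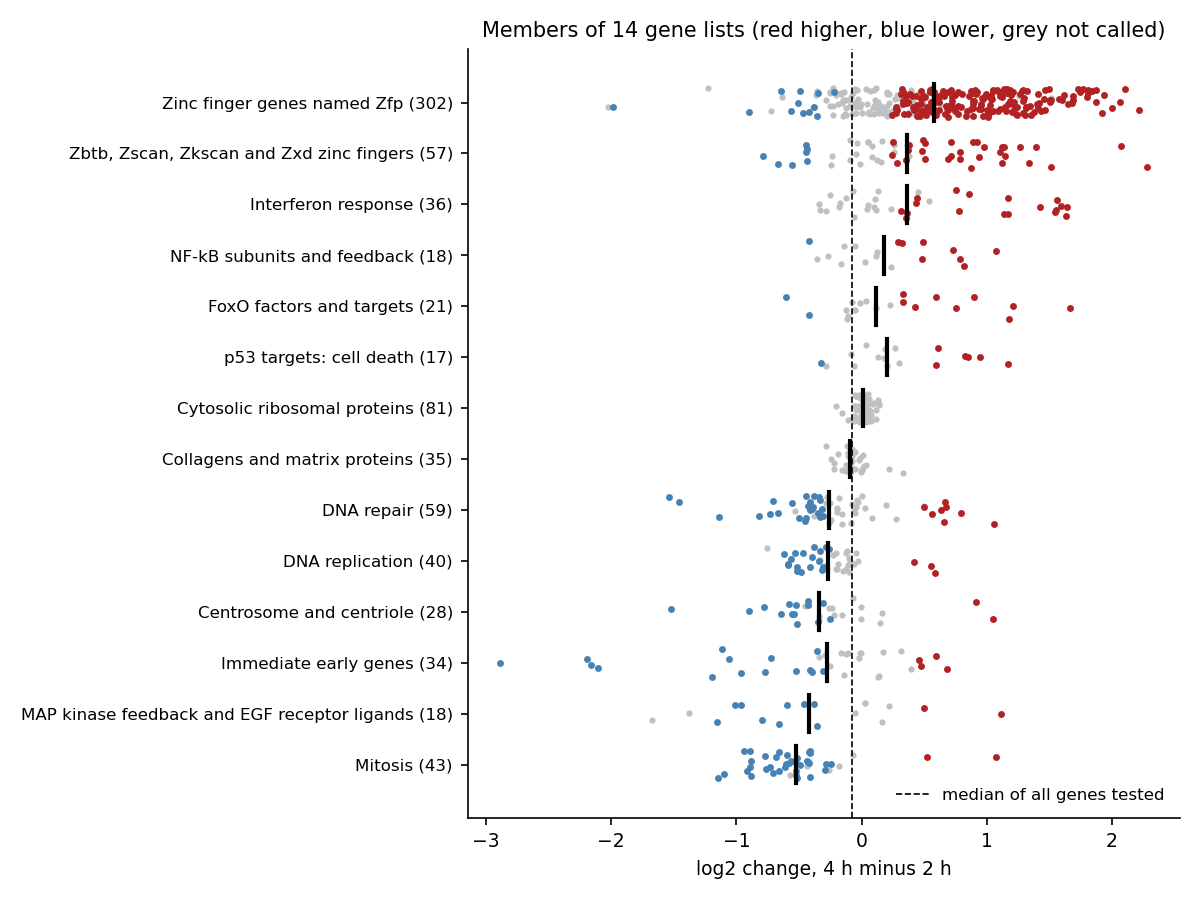
Change from 2 h to 4 h (x axis, log2 scale) of each tested member of 14 gene lists (rows, number of members in brackets); red members were higher, blue lower and grey not called, the black bar is the list's median and the dashed line the median of all genes (-0.08). Zinc finger and interferon genes lie mostly to the right, mitosis genes to the left, and the 81 cytosolic ribosomal proteins lie close together around 0.01.

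Of 34 immediate early genes tested, most of them transcription factors, 15 fell (44.1%, against 16.5% of all genes), 4 rose and 15 were not called, and their median was -0.27. After normexp with the 75th percentile 8 fell and none rose. Egr4, a zinc finger factor of the Egr family, read 103 and 97.4 in untreated cells, 544 and 589 at 2 h, and 79.7 and 73.2 at 4 h. It fell by 2.89 on the log2 scale (SE 0.08, adjusted p = 0.0017) to below its untreated signal, the largest fall in that ranking. Atf3, a stress-induced leucine zipper factor, read 1014 and 990.0, then 6121 and 6104, then 1379.6 and 1294 (-2.19, SE 0.06, adjusted p = 0.0017). Nr4a1, an orphan nuclear receptor, read 15659.6 and 15076, then 37115 and 34647, then 8663 and 7972 (-2.11, SE 0.07, adjusted p = 0.0017). Both 4 h arrays of Nr4a1 were lower than any untreated array, whereas those of Atf3 remained above. Fosb read 38.2 and 34.9, then 264 and 411, then 70.7 and 76.9 (-2.16, SE 0.22, adjusted p = 0.0048), and its 2 h arrays were the least alike of these genes. It was not called after normexp with the 75th percentile (adjusted p = 0.10). Jun fell by 0.72 and Junb by 0.42 on the log2 scale. Junb lost its call without 2 h replicate 1 (adjusted p = 0.064) and without 2 h replicate 2 (adjusted p = 0.063).

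Other early genes were not called, or rose. Fos itself read 119 and 125, then 178 and 195, then 218 and 245, a difference of 0.31 between 4 h and 2 h that was not called (SE 0.09, adjusted p = 0.061). Egr1 read 4628 and 4879 at 2 h and 4363 and 4366 at 4 h (-0.12, adjusted p = 0.18), beside 3061 and 3104 before treatment. The difference between Egr1 and Egr4 was not tested. Btg2, an antiproliferative p53 target, differed by -0.11 (adjusted p = 0.37) on its brightest probe, while its other 2 probes fell by 0.63 and 0.59 on the log2 scale, and Myc differed by -0.25 (adjusted p = 0.074). Among the early genes that rose, Ccn1, a secreted matricellular protein, read 11279.6 and 10941 at 2 h and 18375 and 17365 at 4 h (0.69, adjusted p = 0.0039), and Btg1 went from 9929 and 9747 to 14813 and 14955 (0.60, adjusted p = 0.0037). Both had been lower at 2 h than before treatment, by -0.52 and -0.36. After normexp with the 75th percentile neither was called (adjusted p = 0.077 and 0.082).

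The next list held genes that MAP kinase signalling induces and that feed back on it, with the ligands of the EGF receptor. Of 18 tested, 9 fell (50%) and 2 rose (11.1%), against 16.5% and 13.4% of all genes. The median was -0.42. The falls numbered 5 without 2 h replicate 2. Hbegf, a membrane-anchored ligand of that receptor, read 2439 and 2335, then 6191 and 6088, then 2820.5 and 2707 (-1.15, SE 0.06, adjusted p = 0.0017). Errfi1, an inhibitor of the receptor's kinase, read 6258 and 6474, then 20427 and 20048, then 9857 and 10185 (-1.01, SE 0.06, adjusted p = 0.0018). In both genes the groups did not overlap and the 4 h arrays lay between the other 2 times. Areg, another ligand, read 134 and 122 at 2 h against 45.1 and 35.4 at 4 h, but the difference of -1.67 was not called (SE 0.54, adjusted p = 0.081). Ereg read 0.16 (adjusted p = 0.35), and a second probe of it read -0.87 (SE 0.32) and was not called either. The Sprouty inhibitors of the pathway opposed each other: Spry2 fell from 2642 and 2653 to 1542 and 1504 (-0.80, adjusted p = 0.0022), while Spry1 rose from 1245 and 1239.5 to 2678 and 2714 (1.12, adjusted p = 0.0018), still under its untreated 6195 and 5831. Of 19 dual specificity phosphatases, several of which switch MAP kinases off, 6 fell (31.6%, against 16.5%) and 2 rose, led by Dusp8 (-0.97, SE 0.12, adjusted p = 0.0070). Without 2 h replicate 2 or 4 h replicate 1 the falls numbered 3 and the rises 0, and without either other treated array they numbered 5 and 1. Normexp with the 75th percentile gave 2 falls and no rise.

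**Figure D3:**
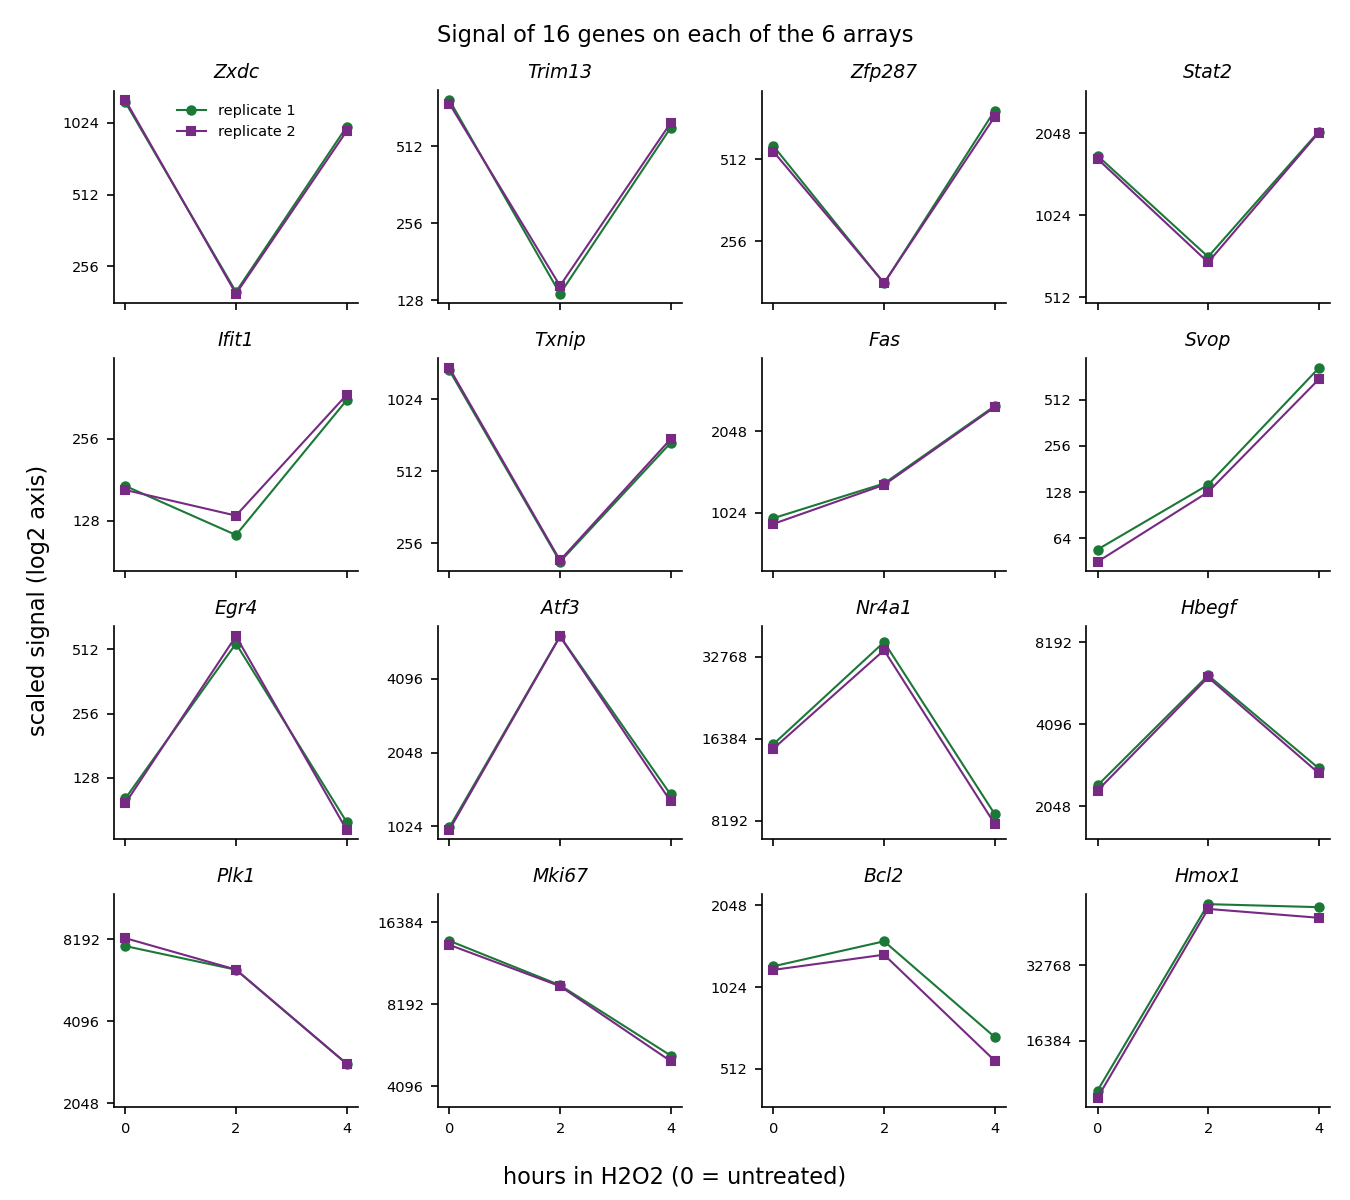
Scaled signal (y axis, log2 scale, range set for each gene) of 16 genes on each of the 6 arrays against hours in H2O2 (x axis, 0 for untreated cells); each line joins the arrays of 1 replicate number, green circles for replicate 1 and purple squares for replicate 2. Zxdc, Trim13, Zfp287, Stat2 and Txnip are lowest at 2 h, Egr4, Atf3, Nr4a1 and Hbegf are highest there, and Plk1 and Mki67 are lowest at 4 h.

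Most genes for mitosis fell. Of 43 tested, 36 fell (83.7%, against 16.5% of all genes) and 2 rose, and the median was -0.53. The falls numbered between 15 and 38 over the alternative scalings and background corrections, the smallest after normexp with the 75th percentile, and 20 without 2 h replicate 1 and 21 without 2 h replicate 2. The list's median stayed between -0.56 and -0.34 over those scalings. Plk1, the polo-like kinase that drives entry into and passage through mitosis, read 7747 and 8283 in untreated cells, 6342 and 6349.8 at 2 h, and 2863 and 2864 at 4 h (-1.15, SE 0.06, adjusted p = 0.0018). Kif2c, a motor that takes microtubules apart at their ends, read 653 and 614, then 547 and 561, then 258 and 259 (-1.10, SE 0.06, adjusted p = 0.0018). The proliferation marker Mki67 read 14025 and 13549.7, then 9632 and 9556, then 5314 and 5069 (-0.89, SE 0.06, adjusted p = 0.0022). In these 3 genes the 4 h arrays were the lowest of the 6. Kif11, the motor that separates the spindle poles, fell by 0.94 and Espl1, the protease that releases sister chromatids, by 0.92 on the log2 scale. With all probes of a gene averaged, both lost their calls (adjusted p = 0.079 and 0.76). The 2 members that rose, Ccnf (1.07, SE 0.08, adjusted p = 0.0030) and Fbxo5 (0.53, SE 0.07, adjusted p = 0.0076), code for F-box proteins, substrate receptors or inhibitors of the ubiquitin ligases that run the cycle. Their 2 h arrays had been lower than the untreated ones, by -0.74 and -1.23. Fbxo5 lost its call after normexp with the 75th percentile (adjusted p = 0.091).

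Mitosis genes are known for 2 short promoter elements, the cell cycle homology region and the CCAAT box, and their promoters are shown because this list moved together. In RefSeq promoter windows of mouse build GRCm38.p6, the letters TTTGAA, on either strand, were found in 29 of 39 windows of 36 mitosis genes (74.4%), against 12.2% of the 14254 windows of all tested genes that had one (11183 genes). CCAAT, on either strand, was in 74.4% of the mitosis windows against 37.3%. Over all genes that fell, TTTGAA was in 14.4% of windows, and over all that rose in 11.3%. Both motifs were chosen after the values had been seen, neither contains the other, and a match is a description of the sequence. Members to print were taken by the size of their fall, if they had a single window and a match in the 150 bases before the start. Plk1, with the largest fall, was passed over by this rule, so the match in all 4 shown follows from the choice. The 150 bases before the start of these 4 members follow, 5′ to 3′ on the gene's strand, with TTTGAA or its reverse complement in capitals. They lie at chr4:117178773-117178922 (minus strand, Kif2c), chr19:37376232-37376381 (plus, Kif11), chr15:102296143-102296292 (plus, Espl1) and chr7:135716380-135716529 (minus, Mki67).
Kif2c: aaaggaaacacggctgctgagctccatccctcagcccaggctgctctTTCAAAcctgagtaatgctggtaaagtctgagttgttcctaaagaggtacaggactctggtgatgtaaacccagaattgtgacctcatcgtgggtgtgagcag
Kif11: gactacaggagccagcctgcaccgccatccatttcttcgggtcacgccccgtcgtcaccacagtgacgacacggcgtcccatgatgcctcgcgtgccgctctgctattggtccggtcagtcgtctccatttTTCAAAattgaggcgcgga
Espl1: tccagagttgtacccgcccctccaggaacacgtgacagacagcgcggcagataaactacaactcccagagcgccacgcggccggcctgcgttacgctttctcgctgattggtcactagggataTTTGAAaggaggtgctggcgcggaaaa
Mki67: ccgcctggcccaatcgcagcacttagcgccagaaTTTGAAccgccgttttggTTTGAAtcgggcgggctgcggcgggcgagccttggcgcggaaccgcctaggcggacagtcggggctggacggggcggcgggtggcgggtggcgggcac

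The other groups of proliferation genes fell less uniformly. Centrosome and centriole genes fell in 14 of 28 cases (50%) and rose in 2 (7.14%), against 16.5% and 13.4% of all genes. Their median was -0.34. Tubd1, delta-tubulin of the centriole, read 999.6 and 1017 at 2 h against 348 and 355 at 4 h (-1.52, SE 0.05, adjusted p = 0.0017), while Tube1, epsilon-tubulin, rose from 78.4 and 84.4 to 140.0 and 168 (0.91, SE 0.11, adjusted p = 0.0065) after 453 and 433 in untreated cells. DNA replication genes fell in 18 of 40 cases (45%) and rose in 3 (7.5%), with a median of -0.27. Those that fell include Rfc5, of the clamp loader (-0.62), Cdc45, of the replicative helicase (-0.59), and Tk1, thymidine kinase (-0.59). Those that rose are Orc1 (0.59), Cdc6 (0.42) and Gins3 (0.56), of which the first 2 license replication origins. DNA repair genes fell in 24 of 59 cases (40.7%) and rose in 8 (13.6%), with a median of -0.26. Brca2, which loads the recombinase in homologous recombination, read 554 and 614 at 2 h and 192 and 209 at 4 h (-1.54, SE 0.09, adjusted p = 0.0022), and Rad54l, of the same pathway, fell by 1.14 on the log2 scale. Lig4, the ligase of end joining, rose from 371 and 358 to 774 and 741 (1.06, SE 0.06, adjusted p = 0.0021), and Ercc4, a nuclease of nucleotide excision repair, by 0.79. Of 32 clustered histone genes 5 fell and none rose, of 36 genes of the G1 cyclins, Myc and E2F group 8 fell and 7 rose (median -0.09 in the last list). The shares that fell, 15.6% and 22.2%, compare with 16.5% of all genes.

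These counts depend on all 4 arrays and on the background correction. With a treated array left out the falls of all genes dropped too, to the counts given with the totals above. Whether a list then kept an excess of falls over all genes was not tested. Without 2 h replicate 1, 2 h replicate 2, 4 h replicate 1 and 4 h replicate 2 in turn, the falls numbered 3, 3, 11 and 6 for replication, 7, 7, 12 and 11 for repair, 6, 7, 8 and 8 for the centrosome, 2, 0, 2 and 1 for the histones, and 1, 1, 5 and 1 for the G1 group. With the slide as a block 15 of the histone genes were lower, where 4015 of all genes were. The normexp correction with the 75th percentile left 0, 1 and 1 for the first 3 of these lists, 0 for the histones and 1 for the G1 group, where 246 genes fell in all. Without 2 h replicate 1, 2 h replicate 2 and 4 h replicate 2, the adjusted p was 0.076, 0.057 and 0.052 for Rfc5, 0.070, 0.065 and 0.057 for Cdc45, and 0.080, 0.061 and 0.064 for Tk1. Cdc6 lost its call without 2 h replicate 1, 2 h replicate 2 or 4 h replicate 1 (adjusted p = 0.080, 0.056 and 0.063), and a second probe of it read -0.15. Averaged over their probes, neither Rad54l nor Ercc4 was called (adjusted p = 0.35 and 0.20). Brca2, Tube1 and Orc1 were not called after that normexp correction (adjusted p = 0.067, 0.098 and 0.062).

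Of 36 interferon response genes tested, 18 rose (50%, against 13.4% of all genes) and none fell. At an unadjusted p under 0.05 in limma 18 were higher and 2 lower. The median was 0.36, and between 0.23 and 0.55 over the scalings, with 12 to 21 members higher and at most 1 lower. Among the antiviral effectors, Mx2, a dynamin-like GTPase, read 107 and 95.6 in untreated cells, 86.4 and 81 at 2 h, and 277 and 244 at 4 h (1.63, SE 0.10, adjusted p = 0.0022). Ifit1, which binds foreign RNA ends, read 172 and 166, then 114 and 134, then 355 and 371 (1.56, SE 0.10, adjusted p = 0.0022). Rsad2, which makes a chain-terminating nucleotide, read 34.2 and 41.6, then 50.7 and 45.8, then 136 and 156 (1.59, SE 0.13, adjusted p = 0.0032), and was not called with its probes averaged (adjusted p = 0.075). In all 3 both 4 h arrays were the highest of the 6. These genes were named for the size of their rise. Over the whole list the median difference from untreated was -0.38 at 2 h and 0.16 at 4 h, a description since the contrasts share arrays. Trim21, a cytosolic antibody receptor and ubiquitin ligase, rose by 1.64 (SE 0.18, adjusted p = 0.0055).

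The factors through which interferon acts were in the same list and are named here after their values were seen. Stat2 read 1696 and 1651, then 721 and 688, then 2080.3 and 2062 (1.56, SE 0.06, adjusted p = 0.0017). Its DNA-binding partner Irf9 read 1315 and 1313, then 818 and 759, then 1744 and 1722 (1.14, SE 0.06, adjusted p = 0.0018), and Irf1 read 4926 and 4832, then 2141 and 2076, then 6316 and 6023 (1.55, SE 0.06, adjusted p = 0.0017). Second probes of Irf1 and Irf9 rose by 1.55 and 1.24. The 3 factors were lowest at 2 h and highest at 4 h, an order that the choice of genes favours and that is a description. Irf7, another factor of the family, read 0.24 and was not called (adjusted p = 0.13).

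The interferon-stimulated response element is read here as GAAA, any 2 bases, and GAAA again, and promoters that hold it are shown for 4 genes of the list. This pattern, on either strand, was in 14 of 38 windows of 31 interferon genes (36.8%), against 2.93% of all windows, 3.06% of those of genes that rose and 3.02% of those of genes that fell. The motif was chosen after the values had been seen, and where TTT stands before it TTTGAA matches too. The 150 bases before the start lie at chr12:26456453-26456602 (minus strand, Rsad2), chr19:34640739-34640888 (plus, Ifit1), chr19:34583379-34583528 (plus, Ifit3) and chr5:120907526-120907675 (minus, Oas1a), in the same build, with matches in capitals.
Rsad2: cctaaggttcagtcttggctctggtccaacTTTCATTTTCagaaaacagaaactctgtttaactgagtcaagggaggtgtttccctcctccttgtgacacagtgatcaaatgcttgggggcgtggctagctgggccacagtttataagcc
Ifit1: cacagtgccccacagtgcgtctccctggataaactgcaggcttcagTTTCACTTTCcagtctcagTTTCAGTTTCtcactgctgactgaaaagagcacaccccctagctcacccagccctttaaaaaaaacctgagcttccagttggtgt
Ifit3: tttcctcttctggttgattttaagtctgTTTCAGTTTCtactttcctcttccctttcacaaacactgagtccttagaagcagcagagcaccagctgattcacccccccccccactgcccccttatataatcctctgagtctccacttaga
Oas1a: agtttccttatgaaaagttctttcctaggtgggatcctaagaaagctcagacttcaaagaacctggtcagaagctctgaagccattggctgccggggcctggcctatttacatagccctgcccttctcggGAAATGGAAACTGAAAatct
Ifit3 rose by 1.17 (SE 0.06, adjusted p = 0.0017). Oas1a, an enzyme that activates RNase L, rose by only 0.37 (SE 0.10, adjusted p = 0.048), and lost the call without each of the 4 treated arrays (adjusted p between 0.097 and 0.17). The rises of these 4 genes with the element ran from 0.37 to 1.59.

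NF-kB subunits and feedback genes rose in 8 of 18 cases (44.4%) and fell in 1 (5.56%), against 13.4% and 16.5% of all genes. Their median was 0.18. The rises numbered 5 without 2 h replicate 2 and 2 after normexp with the 75th percentile. Tnip2, an inhibitor of the pathway, read 446 and 386 at 2 h and 882 and 869 at 4 h (1.08, SE 0.09, adjusted p = 0.0035). Birc3, which restrains cell death downstream of tumour necrosis factor receptors, rose by 0.73 and the adhesion molecule Icam1 by 0.79, the latter not after that normexp correction (adjusted p = 0.058). Of 21 secreted cytokines and chemokines 5 rose and 5 fell (23.8% each way). The rises numbered 2 without 2 h replicate 1 and 3 without each other treated array, and 2 rose and 2 fell after normexp with the 75th percentile. The chemokine Cxcl10, an interferon target, read 182 and 197, then 225 and 248, then 468 and 499.8 (1.03, SE 0.08, adjusted p = 0.0030), and Cxcl5 rose by 0.84 (adjusted p = 0.0039). Il11, a cytokine of the interleukin-6 family, read 109 and 110.0, then 641 and 671, then 339 and 296 (-1.05, SE 0.08, adjusted p = 0.0030), and Vegfa, the angiogenic growth factor, read 6546 and 6326 at 2 h and 4048 and 4131 at 4 h (-0.65, SE 0.05, adjusted p = 0.0031). Both chemokines were higher on the 4 h arrays than on the 2 h arrays, and Il11 and Vegfa were lower. Ccl2 differed by -0.05 (adjusted p = 0.61).

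Some targets of p53 rose further after 2 h, and others were not called. Of 26 genes for arrest and feedback 9 rose (34.6%) and 3 fell (11.5%), with a median of 0.17. Of 17 for cell death 6 rose (35.3%) and 1 fell (5.88%), with a median of 0.20. The shares of all genes were 13.4% and 16.5%. The arrest rises numbered 2, 3 and 5 without 2 h replicate 1, 2 h replicate 2 and 4 h replicate 1, and the cell death rises 6 or 7 without each treated array in turn. Mdm2, the ligase that degrades p53, read 2122 and 2319, then 11015 and 12292, then 11135 and 11568, a difference of -0.04 between the treated times (SE 0.09, adjusted p = 0.79). Gdf15, a secreted stress factor, read 722 and 665, then 5254 and 4985, then 6176 and 5353, a difference of 0.17 that was not called either (adjusted p = 0.26). The treated times overlapped in Mdm2, and in Gdf15 they lay close together. Fas, a death receptor, read 980.3 and 934, then 1314 and 1299, then 2531 and 2507 (0.95, SE 0.06, adjusted p = 0.0021), though a dimmer probe read -0.42 and was not called, and the call was lost with the probes averaged (adjusted p = 0.15). Perp, a membrane protein of p53-dependent apoptosis, read 560.0 and 551, then 787 and 789, then 1429.8 and 1415 (0.85, SE 0.05, adjusted p = 0.0021). Trp53inp1, a co-factor of p53, read 3666 and 3829.7, then 8127 and 7716, then 14395 and 15576 (0.92, SE 0.07, adjusted p = 0.0028). The 4 h arrays of these 3 genes lay above all others. Cdkn1a, the inhibitor p21, rose by 0.43 (SE 0.10, adjusted p = 0.036) but lost its call without 2 h replicate 1, 2 h replicate 2 or 4 h replicate 1 (adjusted p = 0.15, 0.10 and 0.11).

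In the Bcl2 family 4 of 15 genes rose and 4 fell (26.7% each way, against 13.4% and 16.5%). Without 2 h replicate 1, 2 h replicate 2, 4 h replicate 1 and 4 h replicate 2 in turn, 2, 3, 3 and 4 rose and 1, 1, 3 and 1 fell, and normexp with the 75th percentile left 1 fall. Bcl2, its founding survival protein, read 1221 and 1185 in untreated cells, 1509 and 1347 at 2 h, and 671 and 549.8 at 4 h (-1.23, SE 0.12, adjusted p = 0.0043), and its 2 other probes fell by 1.87 and 0.79 on the log2 scale. Bcl2l1, the survival protein Bcl-xL, rose by 0.60 (adjusted p = 0.0079), a call lost without 2 h replicate 1 (adjusted p = 0.052). The pro-death members Pmaip1 (Noxa), which read 5695 and 5911 at 2 h and 8653 and 8859.9 at 4 h, and Bmf rose by 0.59 and 0.75. Both lost the call after normexp with the 75th percentile (adjusted p = 0.073 and 0.085).

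Genes of antioxidant defence are set beside the 13.4% of all genes that rose and the 16.5% that fell. Hmox1, heme oxygenase 1, read 10348 and 9691 in untreated cells, 57301 and 54843 at 2 h, and 55737 and 50562 at 4 h, a difference of -0.08 between the treated times (SE 0.08, adjusted p = 0.50). Slc7a11, which imports cystine for glutathione, differed by -0.12 (adjusted p = 0.36), although 1 of its 3 dimmer probes fell by 1.17 on the log2 scale, and the sulfiredoxin Srxn1 differed by 0.25 (adjusted p = 0.092) on its brightest probe, while 2 dimmer ones rose by 0.42 and 0.50. Of 29 Nrf2 targets 4 rose and 1 fell (13.8% and 3.45%), so the share of rises was near that of all genes. Osgin1, an oxidative stress growth inhibitor, led the rises with 488 and 453 at 2 h and 855 and 755 at 4 h (0.77, SE 0.10, adjusted p = 0.0079). Of 24 genes of cystine, glutathione and amino acid supply 2 rose and 2 fell (8.33% each). Of 13 metal response genes 1 rose (7.69%), the iron exporter Slc40a1 (0.67, SE 0.06, adjusted p = 0.0038). With spike-in scaling 14 of the Nrf2 targets were higher, 10 were with the slide as a block, and between 1 and 3 were without a treated array.

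Of 31 peroxiredoxin, thioredoxin and other antioxidant genes 1 rose and 1 fell (3.23% each). The gene that rose was Txnip, the inhibitor of thioredoxin. It read 1349 and 1379 in untreated cells, 215 and 218 at 2 h, and 673 and 697 at 4 h (1.66, SE 0.05, adjusted p = 0.0017). Its 4 h arrays lay between the other times, and with a second probe averaged in the call was lost (adjusted p = 0.086). Txnip is also a target of the FoxO factors. In the FoxO list 9 of 21 genes rose (42.9%) and 2 fell (9.52%), against 13.4% and 16.5% of all genes. Foxo1 rose by 0.90 (SE 0.06, adjusted p = 0.0026), and Ccng2, a cyclin that accompanies arrest, read 536 and 563 at 2 h and 1249.6 and 1293 at 4 h (1.21, SE 0.06, adjusted p = 0.0018). The rises of that list numbered 4 without 2 h replicate 1 and 4 without 2 h replicate 2.

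Protein-folding and translation stress genes are also set beside the 13.4% of all genes that rose and the 16.5% that fell. Of 32 heat shock genes 4 rose (12.5%) and 2 fell (6.25%). Among the rises was Hspa1a, the inducible Hsp70, which read 1034 and 1075, then 2326 and 2276, then 3273 and 3171 (0.49, SE 0.06, adjusted p = 0.0063). Its other 3 probes read 0.53, 0.87 and 0.32, of which the first 2 passed the test, and after normexp with the 75th percentile it was not called (adjusted p = 0.13). Of 28 genes of the integrated stress response under ATF4, 2 rose (7.14%) and 4 fell (14.3%). Atf4 differed by -0.05 (adjusted p = 0.67) and Ddit3, the factor CHOP, by 0.24 (adjusted p = 0.16). Of 28 genes of the unfolded protein response 3 rose (10.7%) and 1 fell (3.57%), and the chaperone Hspa5 differed by -0.05 (adjusted p = 0.50). The medians of the 3 lists were -0.03, -0.07 and -0.05. Without a treated array the heat shock list held 1 to 3 rises and at most 1 fall, the ATF4 list at most 1 rise and 2 falls, and the unfolded protein list 1 or 2 rises and at most 1 fall.

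**Figure D4:**
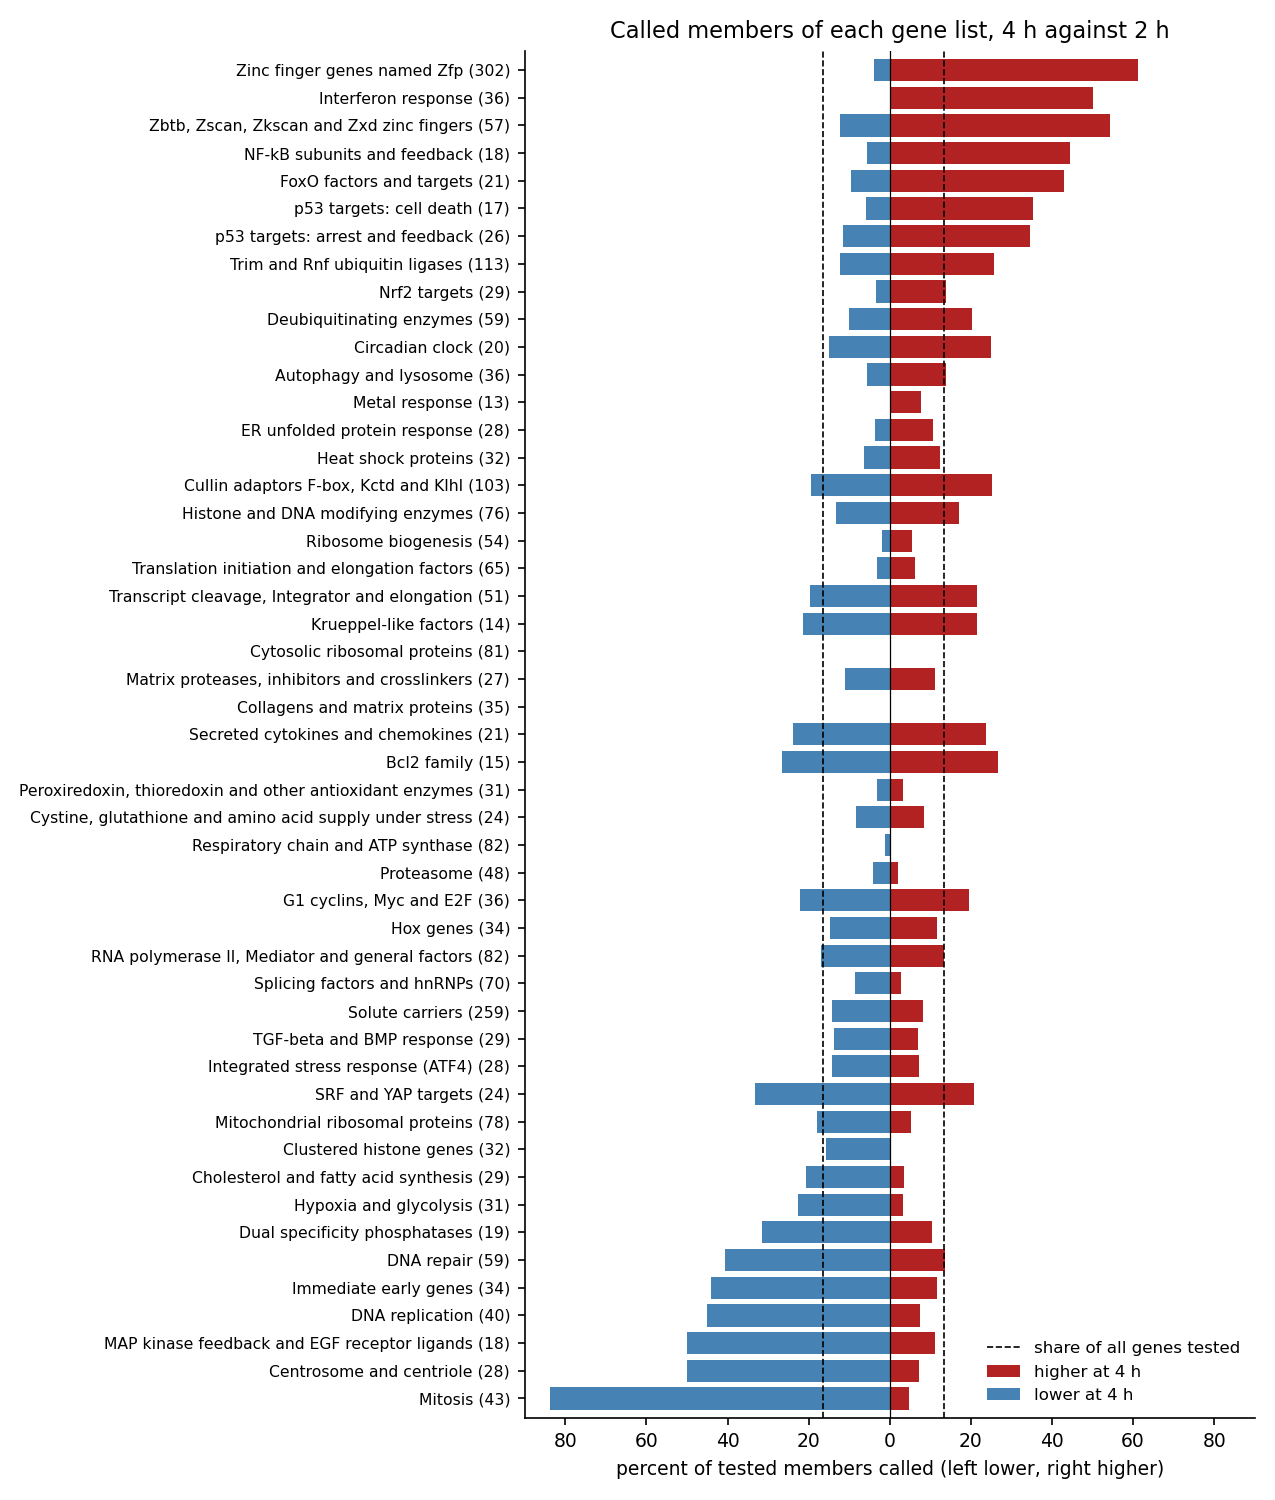
Percent of the tested members of each of 49 gene lists (rows, number of members in brackets) that were higher (red, right) or lower (blue, left) at 4 h; the dashed lines mark 13.4% higher and 16.5% lower, the shares of all genes tested. Mitosis, at 83.7% lower, and the Zfp genes, at 61.3% higher, lie at the ends, and cytosolic ribosomal proteins and collagens have no bar.

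Large groups of abundant transcripts held few or no called genes. None of 81 cytosolic ribosomal protein genes was called by limma in either direction (range -0.21 to 0.14, median 0.01), and 0 were higher and 0 lower at an unadjusted p under 0.05, although 18 were higher with spike-in scaling. None of 35 collagen and matrix genes was called by limma (0 higher and 4 lower at an unadjusted p under 0.05), with Col1a1 at 131392 and 133887 at 2 h and 128166 and 120656 at 4 h. Of 82 respiratory chain genes 1 fell, Ndufs3 (-0.23, adjusted p = 0.039), which lost its call under 15 alternatives, among them each treated array left out (adjusted p between 0.11 and 0.17). Of 48 genes named as proteasome parts or partners 1 rose and 2 fell. Ribosome biogenesis had 3 rises and 1 fall among 54, translation factors 4 and 2 among 65, splicing factors 2 and 6 among 70, and autophagy and lysosome genes 5 and 2 among 36. In each the share called was under the 29.9% of all genes. Bright genes were called less often in general: of the fifth with the highest mean signal, 4.6% rose and 9.02% fell. Whether these lists differ from other genes of like signal was not tested. Without a treated array the splicing falls numbered 2 or 3 and the autophagy rises 1 to 3, and with the slide as a block 9 ribosome biogenesis and 11 splicing genes were lower. Mitochondrial ribosomal proteins fell in 14 of 78 cases (17.9%) and rose in 4, with Mrpl44 the farthest up (1.16, SE 0.06, adjusted p = 0.0018). The falls of this list numbered 0 without either 2 h array, 5 without 4 h replicate 1 and 2 without 4 h replicate 2, and 27 with the slide as a block.

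In the ubiquitin families the share of rises was above the 13.4% of all genes. Of 113 Trim and Rnf ubiquitin ligases 29 rose (25.7%) and 14 fell (12.4%), of 103 F-box, Kctd and Klhl adaptors of cullin ligases 26 rose (25.2%) and 20 fell (19.4%), and of 59 deubiquitinating enzymes 12 rose (20.3%) and 6 fell (10.2%). The rises in these 3 lists numbered 18, 13 and 8 without 2 h replicate 1, and 18, 17 and 7 without 2 h replicate 2. The falls numbered 3 to 6, 8 to 11 and 0 to 3 without a treated array, fewest for the first list without 2 h replicate 1, for the second without 2 h replicate 2, and for the third without either. Klhl26 read 547 and 622 at 2 h and 1564 and 1779 at 4 h (1.51, SE 0.11, adjusted p = 0.0025).

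Lists of the transcription machinery are set beside the 13.4% higher and 16.5% lower of all genes. RNA polymerase II, Mediator and general factors had 11 rises (13.4%) and 14 falls (17.1%) among 82, histone and DNA modifying enzymes 13 (17.1%) and 10 (13.2%) among 76, and cleavage, Integrator and elongation factors 11 (21.6%) and 10 (19.6%) among 51. Without a treated array the rises of the 3 lists numbered 7 or 8, 5 to 7 and 5 to 8, and the falls 2 to 8, 3 to 5 and 3 or 4, the first list's fewest falls being without 2 h replicate 1. With the slide as a block their falls numbered 30, 18 and 14. Taf5, a subunit of TFIID, read 293 and 308 at 2 h and 720.0 and 718 at 4 h (1.26, SE 0.06, adjusted p = 0.0017). Targets of SRF and YAP rose in 5 of 24 cases (20.8%) and fell in 8 (33.3%). Their falls numbered 1 without either 2 h array, 3 without 4 h replicate 1 and 2 without 4 h replicate 2. Ajuba and Amotl2, both of the Hippo pathway, rose by 1.72 and 1.26, and Srf itself fell by 0.77 on the log2 scale (adjusted p = 0.0054). Ajuba read 466 and 498 at 2 h and 1602 and 1569 at 4 h, beside 1563 and 2016 untreated.

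The remaining lists are given by their counts, beside the 13.4% of all genes that rose and the 16.5% that fell. Clock genes rose in 5 of 20 cases (25%) and fell in 3 (15%), with the repressor Cry2 up (0.86, SE 0.06, adjusted p = 0.0023) and Bhlhe40 down (-0.74, SE 0.08, adjusted p = 0.0053). Hypoxia and glycolysis genes fell in 7 of 31 cases (22.6%) and rose in 1 (3.23%). Cholesterol and fatty acid synthesis genes fell in 6 of 29 (20.7%) and rose in 1 (3.45%). TGF-beta and BMP response genes fell in 4 of 29 (13.8%) and rose in 2 (6.90%). Solute carriers fell in 37 of 259 cases (14.3%) and rose in 21 (8.11%), and Hox genes fell in 5 of 34 (14.7%) and rose in 4 (11.8%). Matrix proteases and their inhibitors had 3 each way among 27 (11.1% each), and Krueppel-like factors 3 each way among 14 (21.4% each). The shares of the TGF-beta and BMP, solute carrier, Hox and protease lists were under those of all genes both ways. Without a treated array, the falls numbered 2 to 6 for hypoxia, 1 or 2 for cholesterol, 14 to 25 for the solute carriers, 1 or 2 for the Hox genes and 0 to 2 for the proteases. The rises numbered 4 to 9 for the solute carriers, 2 or 3 for the clock genes and 1 for the proteases. With the slide as a block 70 solute carriers, 11 Hox genes and 8 TGF-beta and BMP response genes were lower.

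At the low end of the signal, 245 genes that fell were above background on both 2 h arrays and on neither 4 h array. The reverse held for 18 that rose. For these only a lowest fold is given. Before treatment 106 and 8 of them were above background on neither array, so they passed the filter only through the brighter time. The counts of such genes are a description. Mmp25, a membrane-bound metalloprotease, read 91.1 and 84.0 at 2 h and was at least 3.27-fold lower at 4 h, and Bsnd, a chloride channel subunit, at least 3.05-fold lower. Plek2, a pleckstrin of cell spreading, read 57.2 and 64.3 at 4 h and was at least 3.53-fold higher there, and Efcab3 at least 2.87-fold. None of Mmp25, Bsnd, Plek2 and Efcab3 was called after normexp with the 75th percentile (adjusted p = 0.85, 0.81, 0.089 and 0.12), and Bsnd lost its call without each of the treated arrays (adjusted p between 0.070 and 0.084). Of 511 genes that were above background on both 2 h arrays and on neither untreated one, 234 were still above it on both 4 h arrays and 197 on neither. They were chosen by their 2 h signal, so their median of -0.75 is a description.

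The labelled cell type was checked against marker lists. All 12 fibroblast markers were above background on all 4 treated arrays. The summed scaled signal of that list was between 1171250 and 1190320 at 2 h and between 1107930 and 1192830 at 4 h, and Pdgfra alone was called (0.38, adjusted p = 0.025). Its call was lost without 2 h replicate 1, 2 h replicate 2 or 4 h replicate 2 (adjusted p = 0.12, 0.087 and 0.083). Signals of different lists rest on different probes and are not compared. The 8 endothelial markers tested summed to between 877 and 965 at 2 h and between 842 and 844 at 4 h. Of these, Pecam1 (-0.97) and Robo4 (-0.71) were lower and Vwf (0.41) higher at 4 h. After normexp with the 75th percentile neither Pecam1 nor Robo4 was called (adjusted p = 0.57 and 0.74), and the signs of both turned. Vwf lost its call without 2 h replicate 1, 2 h replicate 2 or 4 h replicate 1 (adjusted p = 0.076, 0.074 and 0.055). The germ cell markers summed to between 765 and 822 at 2 h and between 436 and 473 at 4 h, most of it from Stra8, a gene of meiotic entry, which read 3.69 and 2.54 untreated, 611 and 647 at 2 h and 298 and 318 at 4 h (-1.03, SE 0.19, adjusted p = 0.019). Stra8 lost its call without each of the treated arrays (adjusted p between 0.074 and 0.090). Of 9 macrophage markers 1 rose, of 2 liver markers 1 rose, of 4 neural markers 2 fell, and 1 each fell of 6 muscle, 3 adipocyte and 2 lymphocyte markers, while none of 6 epithelial markers and 1 red cell marker was called. The 2 lymphocyte markers tested summed to 109 and 108 in untreated cells, 2396 and 2118 at 2 h, and 2058 and 1807 at 4 h. The part of other cells in the results was not tested.

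Falls were most frequent among the longest genes. Of 13696 genes with a length in the RefSeq table, when split by length into 5 groups of like size, the longest group, with a median of 123100 bases, fell in 24.6% of cases and rose in 9.13%. The shortest group, with a median of 3976 bases, fell in 14.3% and rose in 12%, and the 3 groups between them fell in 15.1% to 16.4%. The median change of the longest group was -0.15, and -0.14 on both slides, against -0.09 for the shortest. The lengths are those of the gene table, and were not used in any test.

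**Figure D5:**
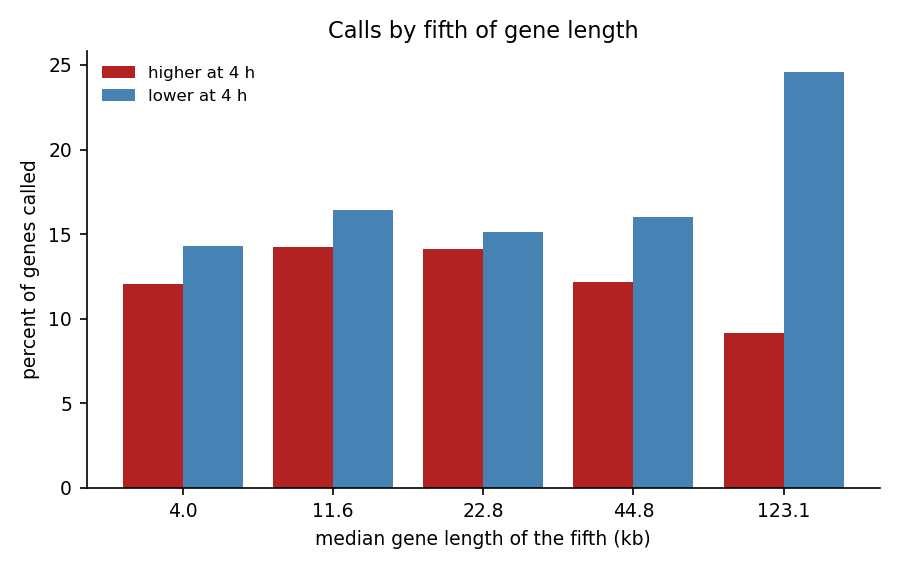
Percent of genes called higher (red) or lower (blue) at 4 h (y axis) for 5 groups of genes by length (x axis, median length of the group in kb). The longest genes hold the largest share of falls, 24.6%, and the smallest share of rises, 9.13%.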

How the data were processed

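Total RNA of 6 cultures was labelled with Cy3 and hybridised to 1-colour Agilent whole genome arrays. Per the file headers, the authors' deposited intensity values were extracted with Feature Extraction 9.5.3.1, which subtracts background within each array and does not scale between arrays; the deposited value table holds the same intensity values. From these, log2 of the processed signal minus each array's 75th percentile was computed here; the deposited files hold no log2 values. Control and flagged spots were left out, spots of a probe were averaged, and the probe with the highest mean signal stood for a gene. A gene was kept (17184 were) where some group had both its arrays well above background. Names came from the files, updated through a RefSeq table of build GRCm38.p6: of 41174 probes, 22951 matched by accession, 6659 by symbol, 3109 by an older symbol, and 8455 kept the file's name. Probe coordinates are not printed, since no source used here gives their build.

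A linear model over all 6 arrays was fitted with limma 3.58.1 (R 4.3.3; 3 residual and 1.635 prior degrees of freedom) and the contrast 4 h minus 2 h was tested with Benjamini-Hochberg adjustment over all genes. The script was tested on simulated data. A bound on a fold compares the mean of the brighter group with the dimmer group's own signal or, if higher, the lowest signal well above background on that array. The comparison and the gene lists were chosen with earlier results of these data known. Genes were named by rule: the 12 largest rises and 12 largest falls above background, the largest bounds, up to 4 called members of each list each way, and a set of well-known stress genes. Ifit3, Irf1, Irf7, Irf9, Oas1a and Stat2 lie outside that rule and were chosen after their values were seen. Precision is limited by having only 2 arrays at each time. The replicate number was the slide in every group; deviations of same-numbered 2 h and 4 h arrays correlated across genes with r = 0.24.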

Additional observations from a re-analysis of the deposited data

How the results depend on the processing

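The number of genes higher at 4 h was 3833 with spike-in scaling, 781 after normexp with the 75th percentile, 1410 with no filter on dim probes, and 591 with a change of at least 1 on the log2 scale. The number lower was 1753 after median centring, 1584 without scaling, 1276 with spike-in scaling, 246 after that normexp correction, 1076 with no filter and 397 with a change of at least 1. Leaving out each of the 6 arrays in turn gave 1316 to 2015 higher and 1045 to 2182 lower. With the replicate block, which is the slide, 2856 were higher and 4015 lower; the numbers mark a shared slide, and only 2 pairs exist for each comparison. Of the 106 named genes past the test, 71 kept the call under every scaling and background correction and 61 under every alternative run except values within a slide, which have no test. Among the called genes named, signs turned for Etl4 (0.53) with probes averaged, and for Pecam1 (0.34) and Robo4 (0.15) after normexp with the 75th percentile. The cause was not tested. Dim genes are limited by their signal over background.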
